A study of Chlamydomonas reinhardtii with 34 samples.

Results

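Intraflagellar transport carries flagellar building blocks along the axoneme, and the transcripts of 9 genes of this machinery were followed in the green alga Chlamydomonas reinhardtii. The 9 loci were given as a list by name: 6 proteins of the IFT-B complex (IFT88, IFT81, IFT80, IFT74, IFT20 and IFT172), 2 of the IFT-A complex (IFT139 and IFT140) and the kinesin FLA10. They were matched to the table by locus identifier, not by any measured value. Each of the 9 was among the 17301 gene models of the table and among the 14513 that passed a filter of a mean of at least 1 RPKM (reads per kilobase of gene model, scaled to the reads of the library). In the order just given, the loci are Cre07.g335750, Cre17.g723600, Cre03.g204150, Cre01.g027950, Cre02.g089950, Cre17.g703900, Cre06.g268800, Cre08.g362650 and Cre17.g730950.

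RNA was sequenced in 34 libraries, 17 of the strain sta6 (CC-4348) and 17 of the strain CC-4349. The sta6 mutation removes a subunit of ADP-glucose pyrophosphorylase, so that these cells make no starch. Both strains were grown in HSM medium in light of 25 µmol photons per square metre and second, washed into HSM without ammonium chloride, and given acetate (the boost) after 48 h without nitrogen. Each strain gave 1 library before the wash, 1 at each of 0, 0.5, 2, 4, 8, 12, 24 and 48 h without nitrogen, and 1 at each of 0, 0.5, 2, 4, 8, 12, 24 and 48 h after the boost. With 1 library per strain and time, no p-value here reflects how cultures vary. In comparisons of phases, successive samples of a phase served in place of replicates, so p-values reflect how much those samples varied. For the strain difference and for the wash and boost steps, p-values reflect how far the strains departed from a shared time course. The phases were replete (before the wash and 0 h, 2 libraries per strain), early starvation (0.5 to 4 h, 3 libraries), middle starvation (8 and 12 h, 2 libraries), late starvation (0 h after the boost together with the 24 h and 48 h samples, 3 libraries), early boost (0.5 to 4 h, 3 libraries) and late boost (8 to 48 h, 4 libraries).

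Flagella are built and kept by trains of IFT-B and IFT-A particles that run between the cell body and the flagellar tip. A kinesin-2 motor, of which FLA10 is a subunit in Chlamydomonas, pulls the trains outward with IFT-B as the scaffold, and IFT-A serves the return run driven by a dynein. Chlamydomonas is the organism in which this transport was discovered, and genes for flagellar proteins are known there to be induced together when flagella are shed and regrown.

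The strain labels were checked with the locus Cre03.g188250, tied to the sta6 mutation by general knowledge. It lay between 0.957 and 7.45 RPKM in the sta6 libraries, against 100 to 304 RPKM in the CC-4349 libraries (exact two-sided permutation over 131072 sign flips within time points, p = 1.5e-05, the smallest value possible). Library depth varied 9.42-fold, with the sta6 library at 2 h without nitrogen the shallowest. The 4 libraries of 0 h without nitrogen and of 0.5 h after the boost stood apart from the rest: 12858 to 13093 gene models reached 1 RPKM in them, against 13488 to 14300 in the other 30 libraries. In bulk RNA, fewer cells carrying flagella and less RNA of a gene per cell cannot be told apart. Reads behind a member's value were recovered as whole numbers within a tolerance of 0.05 reads. They numbered at least 406 in each library for the 7 members other than IFT172 and IFT20, at least 106 for IFT20, and 37 to 3545 for IFT172 in sta6, against 521 to 5680 for IFT172 in CC-4349.

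Across the 17 time points 8 of the 9 transcripts moved as a group in both strains, and IFT172 moved with them in CC-4349 but not in sta6. Over the 28 pairs of the 8 genes other than IFT172, Pearson's r of log2(RPKM + 1) was 0.894 to 0.996 in sta6 (median 0.971) and 0.849 to 0.992 in CC-4349 (median 0.955), over 17 libraries each. The r of IFT172 with these 8 genes was -0.766 to -0.615 in sta6, against 0.853 to 0.991 in CC-4349. These coefficients are descriptions, since the values of 1 library share its depth and its culture and successive libraries are not independent.

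**Figure D1:**
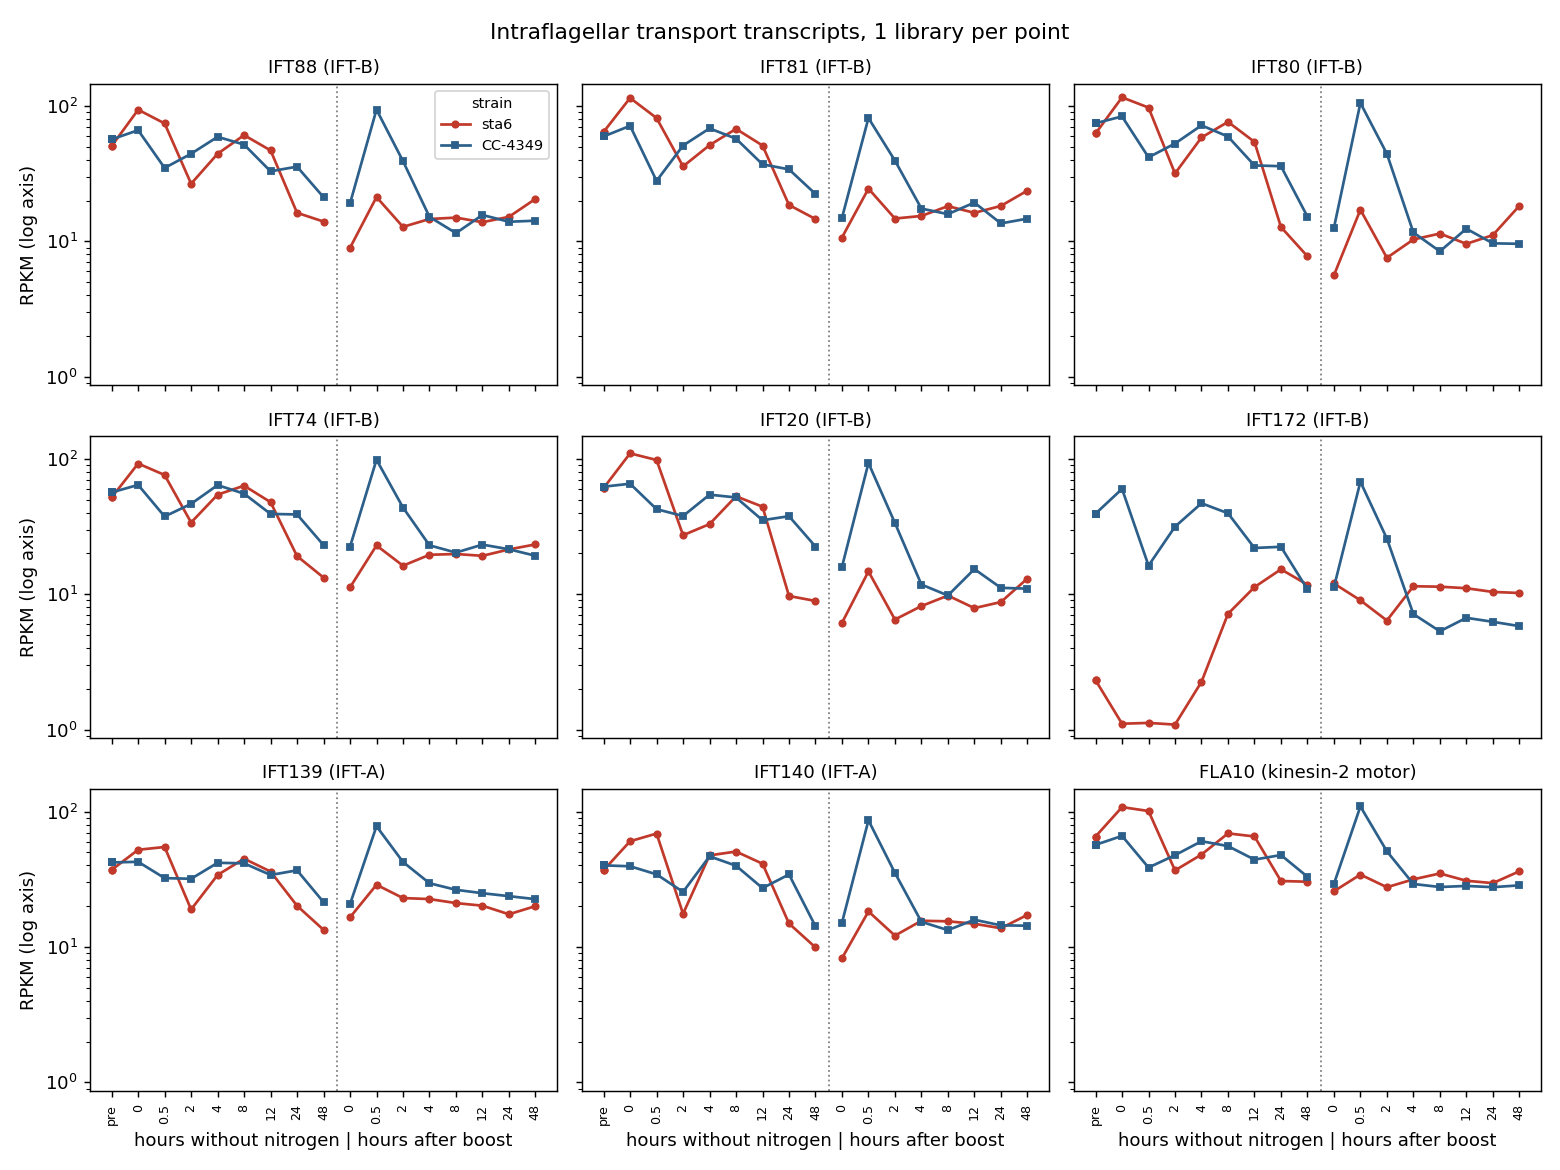
RPKM (log axis) of the 9 transcripts at each of the 17 time points, 1 panel per gene and 1 point per library, with sta6 in red circles and CC-4349 in blue squares and a dotted line at the boost. IFT172 in sta6 had 1.09 to 2.31 RPKM up to 4 h without nitrogen and was highest at 24 h, with 15.3 RPKM, while in CC-4349 each of the 9 genes was highest at 0.5 h after the boost.

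Levels of the 8 genes other than IFT172 were close to each other. RPKM is a level per length, so genes can be ranked by it. In sta6 the mean over 17 libraries was highest for FLA10, 47.4 ± 25.6 RPKM (SD), then came IFT81 at 37.7 ± 29.6, IFT80 at 35.7 ± 35.0, IFT74 at 35.6 ± 24.2, IFT88 at 32.3 ± 25.1, IFT20 at 30.5 ± 32.5, IFT139 at 28.3 ± 12.7 and IFT140 at 27.3 ± 19.4 RPKM, and IFT172 was last at 7.95 ± 4.67 RPKM. In CC-4349 the order was FLA10 at 45.9 ± 20.8 RPKM, IFT74 at 40.9 ± 21.6, IFT80 at 40.3 ± 30.3, IFT81 at 38.0 ± 22.6, IFT88 at 36.8 ± 23.0, IFT20 at 35.9 ± 23.7, IFT139 at 34.9 ± 13.7, IFT140 at 30.1 ± 18.5 and IFT172 at 25.0 ± 19.7 RPKM. Neighbours in either order differed by less than their SD over time points, except IFT140 and IFT172 in sta6, whose gap of means lay within the SD of IFT140 but beyond that of IFT172. That SD is the spread over the time course, and not the spread of the gap between genes within a library. FLA10 was the highest of the 9 in 14 of 17 sta6 libraries and in 10 of 17 CC-4349 libraries.

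The range over time differed by gene. The highest level was 20.6 times the lowest for IFT80 and 17.9 times for IFT20 in sta6, against 12.5 times and 9.51 times in CC-4349. The narrowest ranges were those of IFT139, with 4.09-fold in sta6 and 3.76-fold in CC-4349, and of FLA10, with 4.18-fold in sta6 and 3.95-fold in CC-4349. The motor subunit and this IFT-A subunit therefore had a flatter course than the IFT-B subunits in both strains. In sta6 6 genes were highest at 0 h without nitrogen, IFT139 and IFT140 at 0.5 h and IFT172 at 24 h, whereas in CC-4349 each of the 9 was highest at 0.5 h after the boost.

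The wash into medium without nitrogen was the first step examined. In sta6, 8 of the 9 transcripts were higher at 0 h than before the wash, by 0.48 (IFT139) to 0.88 (IFT88 and IFT80) on the log2(RPKM + 1) scale used for all changes here, and IFT172 was lower by 0.66. IFT80, a subunit at the periphery of IFT-B, had 116 RPKM at 0 h against 62.6 RPKM before the wash in sta6, and 83.6 RPKM against 74.5 RPKM in CC-4349. IFT172 had 1.10 RPKM at 0 h against 2.31 RPKM before the wash in sta6, and 59.9 RPKM against 39.3 RPKM in CC-4349.

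In CC-4349 the changes of the 8 other genes at the wash were -0.02 to 0.26 and that of IFT172 was 0.59. Counts of 2-fold changes are on the log2(RPKM + 1) scale throughout. On it, none of the 9 moved 2-fold in either strain at this step. Adding 1 compresses changes near 1 RPKM, such as the fall of IFT172 in sta6 from 2.31 RPKM to 1.10 RPKM. Of all genes tested 6.76% were at least 2-fold higher and 4.95% lower in sta6, and 3.06% were higher and 2.9% lower in CC-4349. The fit over both strains (limma on log2(RPKM + 1), with time point and strain as terms) called a gene whose Benjamini-Hochberg adjusted p lay under 0.05 and whose change reached 2-fold. It called 0 of 9 members for the wash, against 3.48% of all genes, with fitted changes of -0.03 to 0.55. An unadjusted p under 0.05 was found for 0 of 9, against 4702 of the 14513 genes tested. The median change of all genes was -0.19. IFT172 had a fitted change of 0.14 in place of -0.03 under median-of-ratios scaling, and no member was called.

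**Figure D2:**
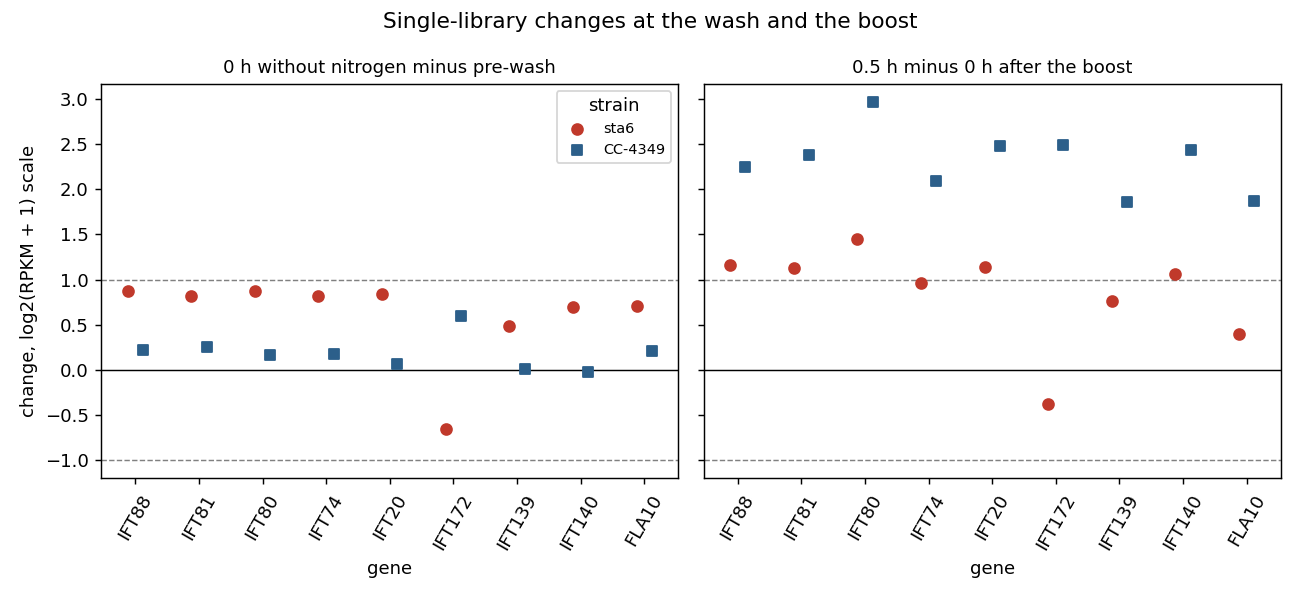
Change of each of the 9 transcripts between successive single libraries, on the log2(RPKM + 1) scale, at the wash (left, 0 h without nitrogen minus before the wash) and at the boost (right, 0.5 h minus 0 h after the boost), sta6 in red circles and CC-4349 in blue squares, with dashed lines at a 2-fold change. At the boost the points of sta6 reach 1.45 at most and IFT172 lies at -0.38, whereas all 9 points of CC-4349 lie at 1.86 or above.

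Over the first 4 h without nitrogen each of the 8 genes other than IFT172 had its lowest level at 0.5 or 2 h in both strains, in single libraries that carry no test. In sta6 the low point of each was at 2 h, with 35.7 RPKM of IFT81 against 81.4 RPKM at 0.5 h and with 26.6 RPKM of IFT88 against 74.2 RPKM at 0.5 h. At that step 8 of 9 members were at least 2-fold lower in sta6, against 9.63% of all genes, and the later library is the shallowest of the study. In CC-4349 the low point was at 0.5 h for IFT88, IFT81, IFT80, IFT74 and FLA10 and at 2 h for IFT20, IFT139 and IFT140. IFT81 had 28.0 RPKM at 0.5 h against 71.3 RPKM at 0 h there, and IFT140 had 25.5 RPKM at 2 h against 39.5 RPKM at 0 h.

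At 8 h the levels of these 8 genes were within 2-fold of those before the wash in both strains. IFT81, which together with IFT74 forms the tubulin-binding module of IFT-B, had 67.7 RPKM at 8 h against 64.3 RPKM before the wash in sta6, and 57.3 RPKM against 59.5 RPKM in CC-4349. Early starvation as a whole (0.5 to 4 h) did not differ from replete cells by the call: 0 of 9 members passed, against 12.1% of all genes. In limma 0 of 9 had an unadjusted p under 0.05, against 7926 of the 14513 genes tested. Fitted changes lay between -0.69 and -0.24, and the lowest Benjamini-Hochberg adjusted p was 0.127. Without the 4 libraries that stood apart they lay between -0.46 (IFT20) and -0.07 (IFT140).

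In late starvation 8 of the 9 transcripts fell. Averaged over the strains and set against replete cells, IFT80 fell by 2.60 (SE 0.405), IFT20 by 2.28 (SE 0.379), IFT81 by 2.00 (SE 0.317), IFT88 by 1.82 (SE 0.331), IFT74 by 1.66 (SE 0.276), IFT140 by 1.52 (SE 0.344), FLA10 by 1.13 (SE 0.256) and IFT139 by 1.04 (SE 0.232). Their limma Benjamini-Hochberg adjusted p-values were 3.94e-06 to 0.000421. Of all genes tested 29.9% were called and 11.5% were called lower, and the median change was -1.66 for the 9 members and 0.26 for all genes. IFT172 changed by 0.34 (SE 0.365, adjusted p = 0.426).

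The values by library show how far the groups lay apart. IFT88, a core IFT-B subunit required for flagellar assembly in Chlamydomonas, had 16.2, 14.0 and 8.95 RPKM in late starved sta6 cells, against 50.5 and 93.7 RPKM in replete sta6 cells. In CC-4349 it had 35.6, 21.2 and 19.0 RPKM late in starvation, against 56.6 and 66.2 RPKM when replete. IFT20, known in mammalian cells for its additional place at the Golgi, had 9.69, 8.91 and 6.13 RPKM late in starvation in sta6, against 60.8 and 110 RPKM when replete.

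In CC-4349 IFT20 had 37.6, 22.5 and 15.9 RPKM late in starvation, against 62.2 and 65.4 RPKM when replete. The late and replete libraries did not overlap for 8 of 9 members in sta6 and for 9 of 9 in CC-4349, each time with the late libraries lower. Of all genes tested 24.7% were lower without overlap in sta6 and 21% in CC-4349. The exception was IFT172 in sta6, where each late library lay above both replete ones, as was so for 38.5% of all genes.

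The smallest falls that passed the test were those of an IFT-A subunit and of the motor. IFT139 averaged 16.7 ± 3.39 RPKM late in starvation against 44.7 ± 10.7 RPKM when replete in sta6, and 26.3 ± 9.10 RPKM against 42.3 ± 0.331 RPKM in CC-4349 (SD, n = 3 and n = 2). FLA10 averaged 28.9 ± 2.74 RPKM against 86.7 ± 30.0 RPKM in sta6, and 36.7 ± 9.79 RPKM against 61.5 ± 6.59 RPKM in CC-4349. Without the 4 libraries that stood apart, 6 of the 8 calls were made, and IFT139 at -0.92 and FLA10 at -0.90 then missed the 2-fold limit with limma adjusted p-values of 0.00532 and 0.00588.

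By the median of the 9 members, the largest fall after 8 h came at different steps in the strains. It was -1.41 from 12 to 24 h in sta6 and -0.73 from 24 to 48 h in CC-4349. From 8 to 12 h the 9 members already had a median change of -0.31 in sta6 and -0.55 in CC-4349. The median of all genes at that step was 0.01 in sta6 and 0.05 in CC-4349. From 12 to 24 h without nitrogen 7 of the 9 transcripts were at least 2-fold lower in sta6, against 7.7% of all genes, whereas 0 of 9 were at least 2-fold lower in CC-4349, against 2.2% of all genes. IFT80 had 12.7 RPKM at 24 h against 54.2 RPKM at 12 h in sta6, and 35.9 RPKM against 36.3 RPKM in CC-4349. From 24 to 48 h IFT80 and IFT140 were at least 2-fold lower in CC-4349, against 1.16% of all genes, and no member was in sta6, against 1.98%. These steps compare single libraries and carry no test. At 0 h after the boost the 9 levels lay between 5.61 RPKM (IFT80) and 25.8 RPKM (FLA10) in sta6, against 11.2 RPKM (IFT172) to 29.2 RPKM (FLA10) in CC-4349.

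**Figure D3:**
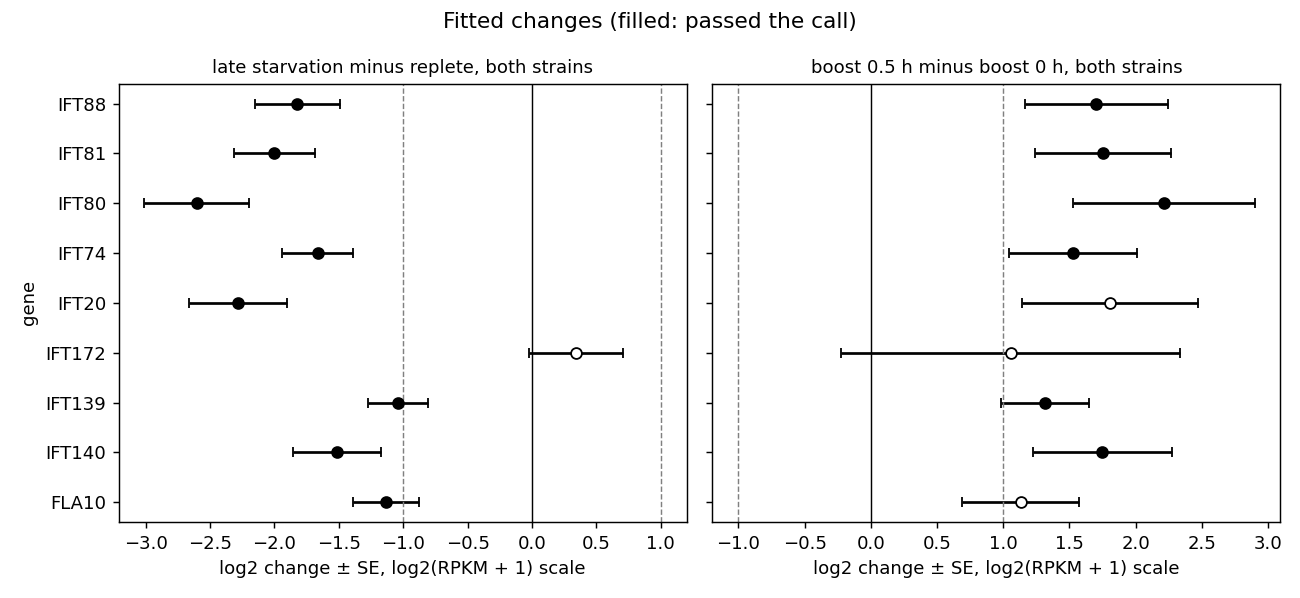
Fitted change of each of the 9 transcripts with its SE, on the log2(RPKM + 1) scale, averaged over both strains, for late starvation minus replete cells (left) and for 0.5 h minus 0 h after the boost (right). Filled points passed the call (limma adjusted p under 0.05, and a change past the dashed 2-fold lines), which were 8 of 9 lower in starvation and 6 of 9 higher at the boost.

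IFT172 was the exception among the 9, and its course depended on the strain. IFT172 is the largest IFT-B protein and is known in Chlamydomonas for its part in the turnaround of trains at the flagellar tip. In sta6 it had 2.31 RPKM before the wash, 1.10, 1.12, 1.09 and 2.25 RPKM at 0, 0.5, 2 and 4 h without nitrogen, and 7.16, 11.3, 15.3 and 11.7 RPKM at 8, 12, 24 and 48 h. In CC-4349 it had 39.3 RPKM before the wash, 59.9, 16.2, 31.5 and 46.9 RPKM at 0, 0.5, 2 and 4 h, and 39.6, 21.9, 22.4 and 10.9 RPKM at 8, 12, 24 and 48 h. The strains were thus far apart in replete cells and close to each other after 48 h of starvation.

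The change of IFT172 in late starvation differed between the strains by 4.12 (sta6 minus CC-4349, SE 0.730, limma adjusted p = 0.001). It averaged 13.0 ± 1.96 RPKM late in starvation against 1.71 ± 0.856 RPKM when replete in sta6, and 14.8 ± 6.54 RPKM against 49.6 ± 14.5 RPKM in CC-4349 (SD, n = 3 and n = 2). Of the 9 members 1 was called in this test, against 2.86% of all genes called and 0.958% called higher. For the other 8 the difference was -1.80 to -0.65, each negative, with adjusted p-values of 0.249 to 0.579. With matched time points as a replicate block IFT20 was called as well (-1.80, limma adjusted p = 0.0297). Without the 4 libraries that stood apart the difference of IFT172 was 3.49 (limma adjusted p = 0.0196).

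Set against its own complex, IFT172 in sta6 was scarce at first. It was nearest to the level of the complex at 24 and 48 h without nitrogen, and above that level at the start of the boost. As a percentage of the median RPKM of IFT88, IFT81, IFT80, IFT74 and IFT20 in the same library, in sta6 it was 1.01 at 0 h without nitrogen and 4.39 at 4 h, then 11.3, 23.6 and 94.0 at 8, 12 and 24 h, and it reached 134 at the start of the boost (0 h). After the boost it lay between 42.4 (0.5 h) and 79.9 (12 h), ending with 49.6 (48 h). In CC-4349 the percentage stayed between 40.9 and 90.5 over the 17 libraries. The rise of the percentage from 12 to 24 h in sta6 came with a fall of that median to 16.2 RPKM at 24 h, against 47.8 RPKM at 12 h, while IFT172 itself had 15.3 RPKM against 11.3 RPKM. The low values rest on few reads: 37 reads at 2 h without nitrogen, 55 at 0.5 h, 122 at 0 h and 460 before the wash.

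**Figure D4:**
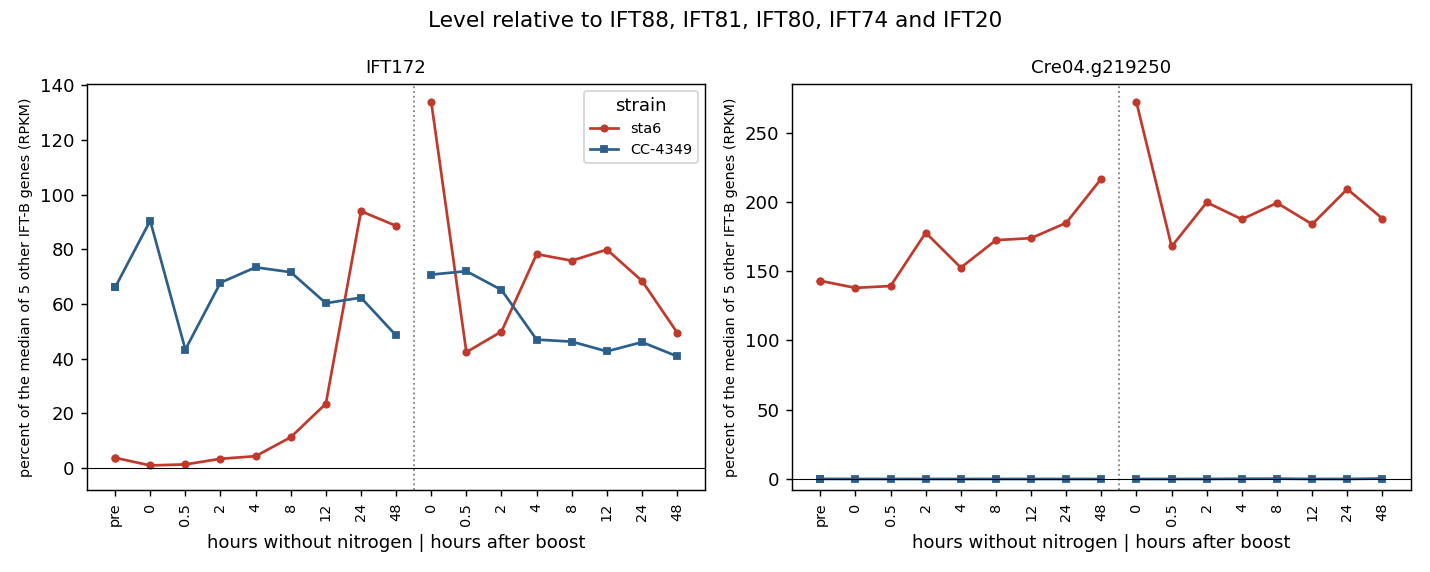
RPKM of IFT172 (left) and of the locus Cre04.g219250 (right) as a percentage of the median RPKM of IFT88, IFT81, IFT80, IFT74 and IFT20 in the same library, at each of the 17 time points, sta6 in red circles and CC-4349 in blue squares, with a dotted line at the boost. In sta6 IFT172 lies at 134 percent at 0 h after the boost, against 1.01 percent at 0 h without nitrogen, and Cre04.g219250 lies near 0 in CC-4349 throughout.

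Over all 17 matched time points IFT172 was lower in sta6 by 1.41 (SE 0.440, limma adjusted p = 0.0133), and it was the 1 member of 9 called for the strain difference, against 5.83% of all genes called and 3.07% called lower. It was lower in sta6 at 10 time points and higher at 7, which were 48 h without nitrogen, 0 h after the boost and 4 to 48 h after the boost. With the means of the 6 phases as pairs the difference was -1.69 and was not called (limma adjusted p = 0.0982). IFT139 was lower in sta6 by 0.33 (adjusted p = 0.0237) at 13 of 17 time points, less than 2-fold. IFT20 differed by -0.56 (adjusted p = 0.0513) and FLA10 by 0.00 (adjusted p = 0.998).

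Transport transcripts rose within 0.5 h of the acetate boost. From 0 to 0.5 h after the boost, over both strains, IFT80 rose by 2.21 (SE 0.687), IFT81 by 1.75 (SE 0.513), IFT140 by 1.75 (SE 0.526), IFT88 by 1.70 (SE 0.539), IFT74 by 1.53 (SE 0.486) and IFT139 by 1.31 (SE 0.331), with limma Benjamini-Hochberg adjusted p-values of 0.00796 to 0.0302. These 6 of 9 were called higher, where 8.37% of all genes were called and 1.19% were called higher. IFT20 changed by 1.81 (adjusted p = 0.0578), FLA10 by 1.13 (adjusted p = 0.073) and IFT172 by 1.05 (SE 1.28, adjusted p = 0.605).

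The median change was 1.70 for the 9 members and -0.19 for all genes. With median-of-ratios scaling, which put the median of all genes at 0.03, IFT20 at 2.07 (limma adjusted p = 0.0318) and FLA10 at 1.40 (limma adjusted p = 0.0312) were called too. Each of the 9 changes was positive under either scaling and under quantile normalization. The step rests on 4 libraries. The number of members called was 1 when the sta6 library of 0 h after the boost was left out and 8 when that of 0.5 h was, and it was 0 when either CC-4349 library of the step was left out. Without the CC-4349 library of 0.5 h the changes of the 6 genes were smaller, at 0.60 (IFT74) to 1.04 (IFT80), with limma adjusted p-values of 0.201 to 0.506. Without that of 0 h they were 1.30 (IFT139) to 2.57 (IFT80), with limma adjusted p-values of 0.0645 to 0.0799. The 2 libraries at 0.5 h are among the 4 that stood apart, and the part of this in the step was not tested.

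In single libraries of sta6, 5 of 9 members were at least 2-fold higher at 0.5 h than at 0 h, against 1.67% of all genes. In CC-4349 9 of 9 were, against 5.36% of all genes. IFT80 had 17.1 RPKM at 0.5 h against 5.61 RPKM at 0 h in sta6, and 105 RPKM against 12.6 RPKM in CC-4349. IFT140, an IFT-A subunit, had 18.3 RPKM against 8.25 RPKM in sta6, and 86.2 RPKM against 15.1 RPKM in CC-4349.

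The motor subunit and IFT172 had the lowest changes in sta6, 0.40 and -0.38. FLA10 had 34.3 RPKM at 0.5 h against 25.8 RPKM at 0 h in sta6, and 109 RPKM against 29.2 RPKM in CC-4349. IFT172 had 9.0 RPKM against 12.0 RPKM in sta6, and 67.6 RPKM against 11.2 RPKM in CC-4349. In sta6 each of the 8 genes other than IFT172 stayed below its own level before the wash, at 14.7 to 34.3 RPKM, whereas in CC-4349 each of the 9 stood above its own level before the wash, at 67.6 to 109 RPKM. The difference of the step between the strains, sta6 minus CC-4349, was tested with a strain term for each of the 2 time points added to the model, an analysis chosen after seeing the data. It was -2.86 for IFT172 (SE 2.63, limma adjusted p = 0.64) and -1.52 to -1.08 for the other 8, and 0 of 9 were called, against 0.303% of all genes. None of the 9 had an unadjusted p under 0.05, against 2123 of the 14513 genes tested, and the lowest adjusted p was 0.361 (FLA10). The median difference was -1.34 for the 9 members and 0.25 for all genes.

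The peak was short in CC-4349. From 0.5 to 2 h after the boost 2 of 9 members were at least 2-fold lower in sta6, against 2.52% of all genes, and 8 of 9 in CC-4349, against 2.47%. From 2 to 4 h 0 of 9 were in sta6, against 0.186% of all genes, and 6 of 9 in CC-4349, against 1.96%. IFT81 had 24.5, 14.7, 15.4 and 18.2 RPKM at 0.5, 2, 4 and 8 h in sta6, and 81.4, 39.5, 17.4 and 15.9 RPKM in CC-4349. By 4 h IFT88 stood at 14.6 RPKM in sta6, against 15.2 RPKM in CC-4349.

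Over 0.5 to 4 h, the early boost called 0 of 9 members against late starvation, where 1.28% of all genes were called. Fitted changes were 0.10 to 0.69, and IFT139 alone had an adjusted p under 0.05 (0.69, SE 0.208, limma adjusted p = 0.031), short of 2-fold. With matched time points as a replicate block its adjusted p in limma was 0.172, and without the 4 libraries that stood apart its change was 0.45 (limma adjusted p = 0.261). An unadjusted p under 0.05 was found for 3 of 9, against 3679 of the 14513 genes tested. The change did not differ between the strains by the call (0 of 9, against 0.00689% of all genes, with each limma adjusted p at 1). For this difference 0 of 9 had an unadjusted p under 0.05, against 374 of the 14513 genes tested. From 8 to 48 h the late boost called 0 of 9 as well, against 0.579% of all genes, with fitted changes of -0.67 (IFT172, limma adjusted p = 0.301) to 0.09. There 1 of 9 had an unadjusted p under 0.05, against 2047 of the 14513 genes tested.

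At the end of the course 8 of the 9 transcripts were higher in sta6 than in CC-4349, IFT139 being the exception, in 1 library each. At 48 h after the boost IFT80 stood at 18.3 RPKM in sta6 against 9.59 RPKM in CC-4349, and IFT81 at 23.7 RPKM against 14.7 RPKM. IFT172 stood at 10.2 RPKM in sta6 against 5.81 RPKM in CC-4349, and IFT139 at 20.0 RPKM against 22.6 RPKM. From 0 to 48 h after the boost IFT80, IFT88 and IFT81 were at least 2-fold higher in sta6, against 2.27% of all genes, and no member was in CC-4349, against 0.875%. On the log2(RPKM + 1) scale of these counts a change such as that of IFT20 in sta6, from 6.13 RPKM to 13.0 RPKM, fell short of 2-fold. Over the late boost libraries (8 to 48 h, n = 4 per strain) IFT172 averaged 10.7 ± 0.548 RPKM (SD) in sta6 and 6.02 ± 0.587 RPKM in CC-4349. The strains were not tested against each other within this phase.

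A further 12 identifiers had been tied to the pathway by general knowledge of the annotation and were listed with earlier results of these data known. No source used here annotates them, so they carry no name or role. Of these, 9 were in the table and passed the filter, Cre04.g219250 only through its level in sta6, so it is described apart. The other 8 were each called lower in late starvation, where 11.5% of all genes were, with changes of -2.46 to -1.30 and a median of -1.70. At the boost 7 of the 8 were called higher, where 1.19% of all genes were, and Cre10.g467000 changed by 1.20 (limma adjusted p = 0.0905). These calls rest on the same libraries as those of the members, so they are no separate support. No result with a library left out is given for these identifiers. None of the 8 was called by limma in the other comparisons. Cre10.g467000 in early starvation, at -0.83 (limma adjusted p = 0.0403), was short of 2-fold. An unadjusted p under 0.05 was found for 3 of 8 for the strain difference, against 7723 of the 14513 genes tested. In early starvation it was found for 2, against 7926 genes, and in the early boost for 3, against 3679. For starvation by strain 1 had it, against 2081, and for the boost step by strain 1, against 2123. In the others 0 had it, against 4702 at the wash, 2047 in the late boost and 374 for the early boost by strain.

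Cre04.g219250 was near absent from one strain. It had 24.3 to 151 RPKM in the 17 sta6 libraries (median 35.6), whereas in CC-4349 13 libraries listed it at 0 and the other 4 held 1 or 2 reads, at most 0.0478 RPKM. With next to no reads in CC-4349, no test of this locus is given. Within sta6 its r with the 8 genes other than IFT172 was 0.890 to 0.991. It averaged 27.7 ± 2.99 RPKM late in starvation against 119 ± 45.5 RPKM when replete in sta6 (SD, n = 3 and n = 2).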

How the data were processed

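The authors deposited 1 normalized value per gene model and library, taken here to be RPKM, since the deposited table names no unit. Library sums of 593366 to 711517 and steps of 1 read that depend on the gene model are properties of that unit. Bowtie was the aligner, per the submitters' processing notes (version, build, annotation release and counting rule: not given in the sources used here). Of the 34 columns 33 matched a sample's description exactly, and that of sta6 at 24 h after the boost differs in the end of its name. Member names come from the list of loci and were paired with them in its order. The reference table (assembly Chlamydomonas_reinhardtii_v5.5) holds the 9 loci without symbols or products, so a search of it for further pathway genes found 0.

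Values were analysed as log2(RPKM + 1) in R 4.3.3, using limma 3.58.1 with a trended empirical Bayes prior, over the 14513 genes averaging 1 RPKM or more, and p-values were Benjamini-Hochberg adjusted over all of them. Changes of genes near 1 RPKM are compressed on this scale. The strain difference, the wash and the boost step came from a model with time point and strain (16 residual degrees of freedom), the boost step by strain from that model with 2 further strain terms (14 residual degrees of freedom), the others from a model of 12 strain-by-phase groups (22 residual degrees of freedom). Samples of the strains taken at the same time point were paired by the design and correlated (consensus correlation 0.528), and an alternative fit took the time point as a block. The fits were also run on simulated data with independent normal errors around a flat mean per gene. Those data held no correlation between paired or successive samples, so they cannot show how well the p-values hold for this design. Reads were recovered from the steps between a gene's low values. They are not independent molecules, so read numbers cover counting error only. All 9 members are named in each comparison. The members, the other identifiers, the phases and the tests were chosen with earlier results of these data known.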

Additional observations from a re-analysis of the deposited data

Results flagged for a closer look

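IFT172 changed differently in the strains during starvation, as its interaction term passed the test. The difference of its log2 changes, sta6 minus CC-4349, was 4.12 (SE 0.730, limma adjusted p = 0.001). All 3 late starved sta6 libraries lay above both replete ones, as was so for 38.5% of all genes. All 3 late starved CC-4349 libraries lay below both replete ones, as was so for 21% of all genes. No library lay far from the others of its group in any of the 18 groups of 4 late boost libraries (9 members in 2 strains), the 1 phase with enough libraries for that check.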

How the results depend on the processing

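No member changed its direction while called under any alternative run, and a direction is given here only to called values. For the strain difference the 1 member called became 2 with the adjusted p alone (IFT139 besides IFT172), while the genes called in all went from 846 to 6701 of 14513. The count of members became 0 with the means of the 6 phases as pairs, a fit that rests on fewer pairs and called 724 genes in all. For the boost step the 6 members called became 0 to 8 when each of its 4 libraries was left out in turn, and for the early boost the 0 called became 0 to 1 when each library was left out in turn (IFT80 at 1.08 with the 4 h boost library of CC-4349 left out) and 1 with the adjusted p alone (IFT139). With the adjusted p alone the genes called in all for the early boost went from 186 to 1557. For starvation by strain the 1 called became 2 with matched time points as a replicate block, which called 1088 genes in all, against 415 without it. That block changed no other count of members called. For the boost step by strain 0 members were called under each of the 8 alternatives run, while the genes called in all, 44, became 0 with median-of-ratios scaling or quantile normalization, 20 with a pseudocount of 5 or a mean of at least 5 RPKM, and 67 with a pseudocount of 0.1.

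In late starvation IFT139 missed the 2-fold limit at -0.91 with a pseudocount of 5, at -0.97 without 0 h after the boost among the late libraries, and at -0.98 to -0.92 without the CC-4349 libraries at 48 h without nitrogen or 0 h after the boost or the sta6 libraries at 0 h or 48 h without nitrogen. FLA10 missed it at -0.96 without the sta6 library at 0 h. The cause of these shifts was not tested. Median-of-ratios scaling moved the median of all genes from -0.19 to 0.03 at the boost step and from 0.26 to 0.01 in late starvation, where higher and lower calls numbered 1889 and 2264 with it and 2675 and 1665 without it. At the boost step they numbered 439 and 544 with it and 172 and 1043 without it. Without the shallowest library, an alternative chosen after seeing the data, the counts of members called for the strain difference, the wash and the boost step were 1, 0 and 6. Depth limits the low values of IFT172 in sta6, where 37 reads at 2 h without nitrogen gave a 95% interval of 26.1 to 51.0 reads (exact Poisson).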

Other observations

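The gene models whose course was most like the mean course of the 9 members over the 34 libraries, each gene centred on the mean of its strain, were Cre11.g475000 (Pearson's r = 0.991), Cre24.g770400 (0.990), Cre18.g747800 (0.989), Cre01.g025400 (0.985) and Cre02.g127950 (0.984), among 14504 gene models. The first of these is among the identifiers tied to the pathway by general knowledge. An r of at least 0.9 was found for 228 gene models (1.57%). These coefficients are descriptions over libraries that share time points and are not independent, and the files give these loci no name.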
